A study of Mus musculus with 10 samples.

Results

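The parental Mel-BirA line was read on 2 of the 10 arrays of the series, chosen by their titles. It is a line of mouse erythroleukemia (MEL) cells, red cell precursors transformed by Friend virus that can be grown without limit, and it carries BirA, a bacterial ligase that attaches biotin to a tagged protein. BirA is shared by every line of the series. The other 8 arrays are of 4 subclones that also carry FLAG-Biotag-BCL11A, a tagged copy of that repressor, and they enter here only through the median of the whole table, with no comparison of lines. The labels used here give no growth conditions and no inducing treatment, and they do not say whether the 2 parental arrays came from separate cultures. Each value is a fluorescence intensity of labelled RNA bound to the probes of 1 gene. The question was which genes of the red cell, progenitor and other blood lineages lay well above the median intensity of the table in this line, and which did not.

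Erythroleukemia cells of the Friend virus are known to be held at an early red cell stage, with active erythroid transcription factors and little hemoglobin until they are induced to mature. GATA1, KLF1 and TAL1 switch on globin, heme and membrane genes in normal red cell development. PU.1, encoded by Spi1, is a myeloid factor known to be driven by viral insertion in such cells and to hold GATA1 in check. Mast cells and megakaryocytes share GATA factors with red cells, whereas neutrophils, macrophages and B cells rely mainly on other regulators.

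The intensity median over all 10 arrays was 30.5, and a gene was called well above it where both parental arrays reached 4 times that level, 122. Of 18193 genes with a probe set of their own, 5830 were well above, which is 32.0%. A further 5161 genes were above the median on both arrays without reaching that level, 1042 were above it on 1 array only, and 6160 (33.9%) were at or below it on both. At the edge of the threshold, Hibch was just inside with its lower array at 122.05 and Gba2 just outside at 122.03. Each gene was read by its brightest probe set. Probe sets differ in how strongly they bind, so a rank by intensity orders the brightness of probe sets and not amounts of transcript. With 2 arrays and no second group there was nothing to test, and no p-value is given.

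The 2 arrays read most bright genes alike and differed in some control probe sets. Spearman's rho between them across the 18193 genes was 0.976, and Pearson's r of the log2 intensities was 0.959, across genes that are not independent replicates. Among 6075 genes whose mean reached 4 times the table median, the arrays differed by a median of 0.13 on the log2 scale, and 7 genes differed over 2-fold. Among 6687 genes whose mean was at or below the table median, the median difference was 0.57, and 1869 differed over 2-fold. For actin, the control probe set at the 3' end was 1.22 times as bright as that at the 5' end on array 1 and 1.80 times on array 2, a ratio that grows as RNA breaks down. The same ratio was 0.835 and 0.971 for Gapdh, and 4.20 and 4.38 for the transferrin receptor. The 27 control probe sets for Bacillus transcripts had a median of 9.51 on array 1 and 7.94 on array 2, with highest values of 53.8 and 57.0, so an intensity near the table median could not be told from that of unrelated sequence. Of these control probe sets, 1 on array 1 and 2 on array 2 exceeded the table median. In the deposited values, 1113 probe sets of array 1 and 1026 of array 2 stood at exactly 1, so intensities there have no order.

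The 5 marker genes, chosen with earlier results of these data known, were all well above the median. Gata1, the zinc finger factor at the head of the red cell program, had 2163 and 2339 on arrays 1 and 2, a mean of 2251 ± 124 (SD, n = 2). It ranked 198 of all genes. Klf1, the activator of adult beta-globin, had 1117 and 1199. Tfrc, the transferrin receptor that brings iron into the cell, had 2417 and 2730.3 by its brightest probe set. Spi1, which encodes PU.1, had 397 and 344 and ranked 2190. Mcpt2, a chymase of mast cell granules, had 5974 and 4933 and ranked 61. Both arrays thus read Gata1, Klf1 and Spi1 well above the median in RNA of the same line, together with a mast cell gene among the brightest of the table. Such RNA is pooled over cells, so whether single cells hold these transcripts together was not measured.

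**Figure D1:**
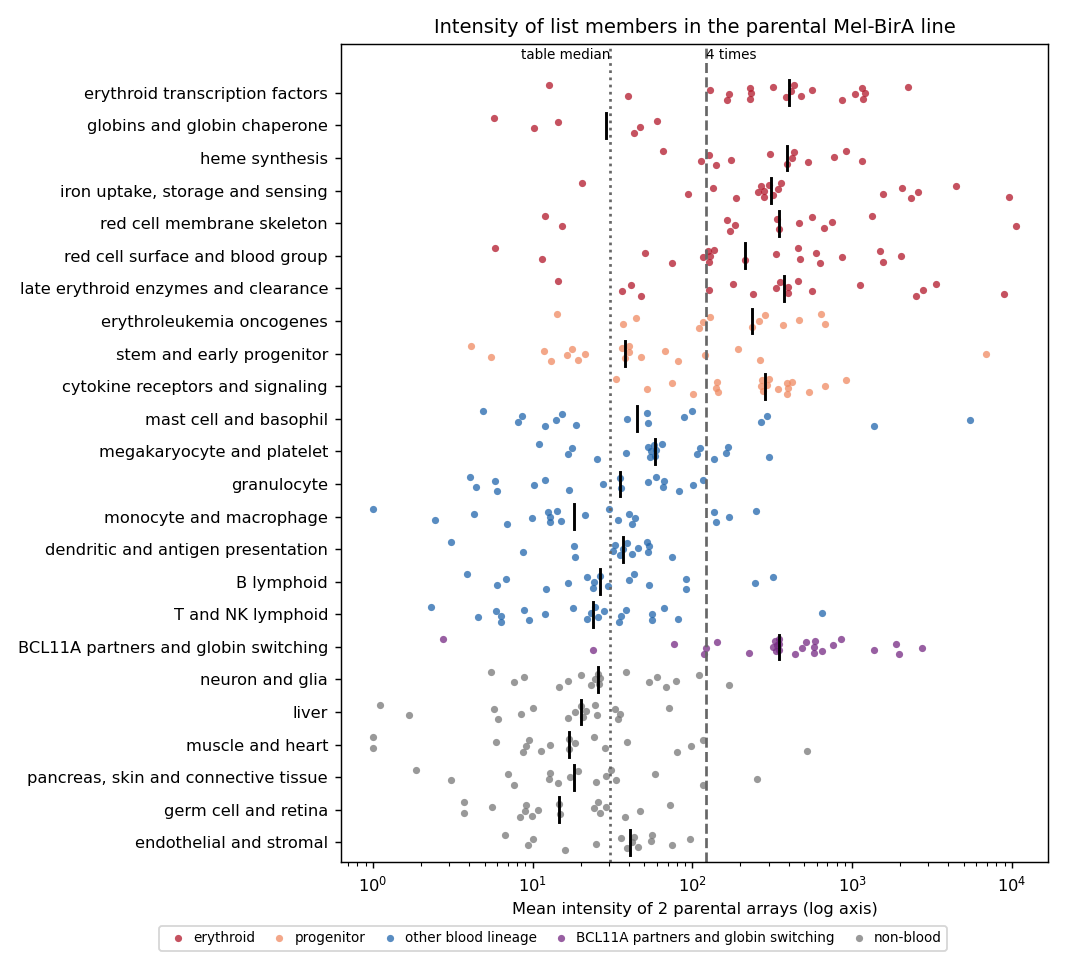
Mean intensity on the 2 parental arrays (log axis) of each measured member of 24 gene lists, 1 point per gene, with the list median as a black bar, the table median of 30.5 as a dotted line and 4 times that level as a dashed line. List medians lie at 215 to 401 in the erythroid lists other than globins and at 28.8 in the globin list. In the other blood lineages they lie at 18.2 to 58.0.

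Genes of translation filled the top of the table. Of the 25 brightest genes 20 have the symbol of a ribosomal protein (Rpl or Rps), and of the 100 brightest 36 do. Eef1a1, the elongation factor that delivers tRNA to the ribosome, ranked first at 15557 and 14984. Eef2, the translocation factor, had 9822 and 9229, and Pabpc1, the poly(A) binding protein, had 8080.2 and 8866. Tpt1, Npm1 and Naca, which take part in growth, ribosome assembly or nascent chain binding, had means between 6212 and 10072. Fau, which encodes a ribosomal protein as part of a fusion but carries neither symbol and is not in those counts, had 7239 and 7549. Gas5, a noncoding host of small nucleolar RNAs, had a lower mean of 5592.

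Among the 25 brightest genes without such a symbol were several tied to red cells, glycolysis and metal binding. Car1, a carbonic anhydrase of red cells, had 8932 and 8908 and ranked 33. Fth1, the ferritin heavy chain that stores iron, had 9561 and 9519. The glycolytic genes Aldoa, Ldha and Pgk1 had means of 9399.8, 8526 and 7745. Mt1 and Mt2, the metal-binding metallothioneins, had means of 7934 and 6691. Sod1, which removes superoxide, had 5369 and 5544. Ctse, which encodes the aspartic protease cathepsin E, had 8649 on array 1 and 5387 on array 2, the widest relative gap of the 25. Actb and Actg1, the cytoplasmic actins, had means of 10662 and 6358, with Actb at 12207 and 9117. Hspa8, Tomm20, Slc25a3, Ran and Tmem131 completed the 25, at means of 5592 to 10577, along with Mycn. These ranks depend on the probe set: other probe sets of Sod1, Tpt1 and Eef2 had means as low as 8.74, 2.92 and 27.2, and the second of Mt1 had 19.2.

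Mycn, a MYC family growth regulator, ranked 48 by 1 of its 3 probe sets. That probe set had 6939 and 6913, whereas the other two had 21.1 and 28.5 on arrays 1 and 2, and a mean of 5.83, and neither exceeded the table median. The level of Mycn thus rests on a single probe set, and by the median of its probe sets it would stand at 24.8.

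**Figure D2:**
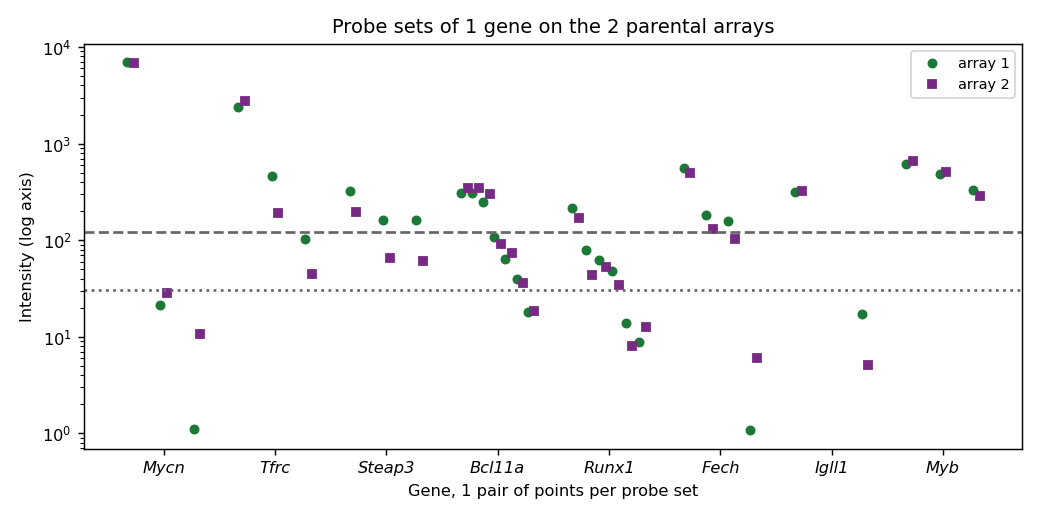
Intensity (log axis) of every probe set of 8 genes on parental array 1 (circles) and array 2 (squares), ordered from bright to dim within a gene, with the table median dotted and 4 times that level dashed. The 3 probe sets of Myb stay above the dashed line, whereas 1 of 3 does for Mycn and 3 of 7 for Bcl11a.

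Most genes of the red cell lists were well above the median. Over 7 lists, 107 of 122 genes had a probe set of their own, and 80 of these (74.8%) were well above, against 32.0% of all genes. Another 17 were above the median on both arrays, where 60.4% of all genes lay when those well above are included, and 10 were at or below it, against 33.9% of all genes. Their median intensity was 332, against 57.1 over all genes. By the median of each gene's probe sets, 65 of the 107 were well above, against 4107 of all 18193. All lists, the red cell lists included, were chosen with earlier results of these data known. Other lists served for comparison. Of 100 measured genes typical of nerve, liver, muscle, pancreas, skin, germ cells, retina or vessels, 3 were well above (3%). None of 39 olfactory receptor genes was well above. The red cell lists also hold genes active in many cell types, such as Actb and Fth1, whereas the comparison lists hold tissue-restricted genes. The part of that difference in the gap was not tested.

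Of 20 erythroid transcription factors and cofactors, 17 were well above the median (85%, against 32.0% of all genes), 2 above it and 1 not. Ldb1, which bridges the TAL1 complex to distant sites, had 1229 and 1166. Cbfa2t3, the ETO2 corepressor of that complex, had 1084 and 1259, and Zfpm1, the GATA1 partner FOG1, had 983 and 1099. Ikzf1, the zinc finger factor Ikaros, had 823 and 901. Lmo2, Tal1 and Gfi1b, further members of the GATA1 and TAL1 network, had means of 558, 430.0 and 417. Nfe2, the large subunit of a factor that activates globin genes, stood lower at 157 and 183. Zbtb7a, a zinc finger repressor that takes part in globin silencing, had 38.6 and 40.6. Hemgn, a nuclear protein of maturing red cells, had 16.3 and 8.95 and was the only factor of the list at or below the median on both arrays.

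Adult globin transcripts were bright by the probe sets that their gene copies share, and the embryonic beta-like globins were not above the median. The brightest probe set shared by Hba-a1 and Hba-a2, the adult alpha-globin genes, had 1952 and 2376, a mean of 2164 ± 300.3 (SD, n = 2), and 208 genes were brighter. Another shared probe set had 1009.5 and 1327, and the dimmest 28.7 and 27.8. For adult beta-globin a single shared probe set had 865 and 975, with 667 genes brighter. Since these 4 probe sets read several near-identical genes, no copy can be named singly. Probe sets assigned to a single copy were dim, at 62.7 and 56.7 for Hba-a2, 49.3 and 37.1 for Hbb-b2, and 8.05 and 3.43 for Hba-a1. The alpha-like gene of the embryo, Hba-x, had 49.1 and 44.3. The embryonic beta-like genes Hbb-y and Hbb-bh1 had at most 12.5 and 18.6 on either array, within the range of the Bacillus control probe sets. By probe sets of their own, 6 members of the globin list were measured, of which 0 were well above, 3 above and 3 not. Over all genes 32.0% were well above and 33.9% not above. The counts over the red cell lists include these 6 at those levels and leave out the shared probe sets.

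Heme synthesis genes were mostly well above the median, with the first enzyme of the pathway the dimmest. Of 13 measured members 11 were well above (84.6%, against 32.0% of all genes). None was at or below the median, where 33.9% of all genes lay. Tmem14c, a mitochondrial carrier of the heme precursor, had 1097 and 1195. Cpox, Urod, Fech, Alad and Ppox, enzymes of steps after the first, had means of 914, 768, 531, 436 and 419. Alas2, the red cell form of the enzyme that starts the pathway, had 59.1 and 72.7 and ranked 8530, and Alas1, its form in other cells, had 106 and 121. Only 7 of the 13 were well above by the median of their probe sets: Fech, for example, also had probe sets at means of 157, 131 and 3.54.

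Of 18 measured genes of iron uptake, storage and sensing, 16 were well above (88.9%, against 32.0% of all genes). After Fth1, the RNA- and iron-binding proteins Pcbp2 and Pcbp1 had means of 4499.9 and 1572. Ncoa4, which takes ferritin to the lysosome, had 2640.1 and 2051, and Glrx5, needed for iron-sulfur clusters, had 1943 and 2152. The ferritin light chain Ftl1, by the brightest of the probe sets it shares with a pseudogene, had 8507 and 8157. Slc25a37, the mitochondrial iron importer mitoferrin, had 123 and 146. Slc40a1, the iron exporter, had 94.7 and 92.0, and Hfe, a regulator of systemic iron, had 26.1 and 14.7. Tfrc and Steap3, the reductase of the transferrin cycle, each had dimmer probe sets that read lower on array 2. For Tfrc these had 459 and 104 on array 1 and 192 and 45.0 on array 2, and for Steap3 161 and 161 on array 1 and 65.2 and 61.3 on array 2. The brightest Steap3 probe set had 321 and 197. The 3' control probe set of the transferrin receptor had 414 on array 1 and 209.7 on array 2, while its 3' to 5' ratio was nearly equal on both. The part of RNA quality in these gaps was not tested.

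Most membrane skeleton genes were well above the median, whereas band 3 and its partner protein 4.2 were not above it. Of 13 measured genes 11 were well above (84.6%, against 32.0% of all genes), led by Actb. Tpm3, a tropomyosin, had 1245 and 1412. The adducins Add1, Add3 and Add2, which cap actin filaments, had means of 753, 669.9 and 562. Mpp1, the palmitoylated p55 protein of the membrane junction, had 495 and 439.9. Ank1, which anchors spectrin to the membrane, had 302 and 379, and Sptb, beta-spectrin, 214 and 157. In contrast Slc4a1, which encodes the chloride-bicarbonate exchanger band 3, had 16.9 and 6.97. None of its 3 probe sets exceeded the table median on either array. Epb42, protein 4.2, which binds band 3, had 14.8 and 15.8, and its second probe set had 4.79 and 2.30.

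Of 19 measured red cell surface and blood group genes 12 were well above (63.2%, against 32.0% of all genes) and 5 above. Ermap, an erythroid member of the immunoglobulin family, had 2007 and 2049, and Icam4, an adhesion molecule of red cells, had 1511 and 1627. Bsg, which escorts lactate transporters, had 1571 and 1404. The nucleoside carrier Slc29a1, the glucose carrier Slc2a1 and Cd47, a signal that restrains phagocytes, had means of 866, 634 and 594. The ammonia channel gene Rhag and its relative Rhd had means of 332 and 461. Cd36 and Art4 were at or below the median on both arrays, at means of 11.4 and 5.86.

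Of 18 measured genes of red cell enzymes and of late maturation, 13 were well above the median (72.2%, against 32.0% of all genes). Another 4 were above it and 1 was not. After Car1, the antioxidant genes Gpx1 and Prdx2 had means of 3355 and 2778, and Car2, a second carbonic anhydrase, had 2283 and 2755. Blvrb, a flavin and biliverdin reductase, had 1151 and 1100.4, and Pklr, the pyruvate kinase of liver and red cells, 580.4 and 538. Bpgm, which makes the metabolite that lowers the oxygen affinity of hemoglobin, had 59.7 and 35.8. Ube2o, a ubiquitin ligase of reticulocytes, had 44.4 and 38.7, and Alox15, a lipoxygenase of organelle breakdown, had 12.9 and 15.9. The mitophagy receptor Bnip3l, read by 3 probe sets shared with a pseudogene, had means of 1375, 507 and 266. Trim10 had 304 on array 1 and 493 on array 2.

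**Figure D3:**
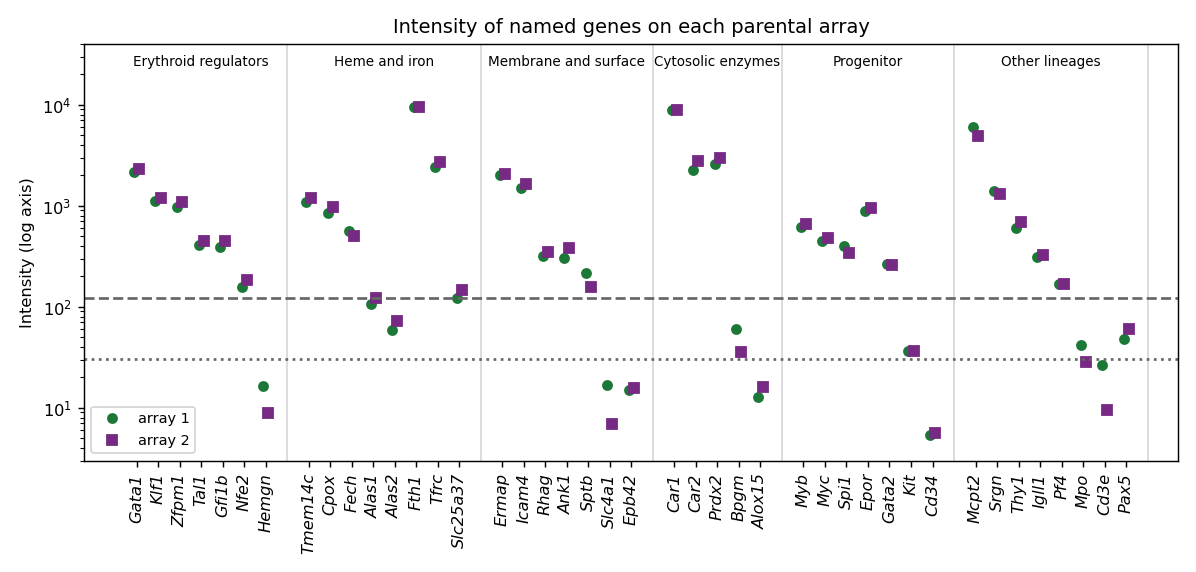
Intensity (log axis) of named genes on parental array 1 (circles) and array 2 (squares), with the table median dotted and 4 times that level dashed. Gata1, Klf1, Car1 and Mcpt2 lie far above the dashed line on both arrays, whereas Hemgn, Slc4a1, Epb42, Alox15 and Cd34 lie below the dotted line.

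Bright and dim erythroid genes are shown here by the reference sequence at their start sites, because GATA1 and KLF1 are known to act through short GATA and CACCC sequences. Each window runs from 250 bases before to 50 bases after the annotated start in GRCm38.p6, credited to RefSeq and not read from the line. Capitals mark AGATAA and CCNCNCCC on either strand, and matches that overlap are merged. The first pair, Klf1 (chr8:84901732-84902031, plus strand) and Epor (chr9:21963527-21963826, minus strand), was bright, and the second pair, Alas2 (chrX:150547167-150547466, plus strand) and Epb42 (chr2:121036828-121037127, minus strand), was not.
Klf1: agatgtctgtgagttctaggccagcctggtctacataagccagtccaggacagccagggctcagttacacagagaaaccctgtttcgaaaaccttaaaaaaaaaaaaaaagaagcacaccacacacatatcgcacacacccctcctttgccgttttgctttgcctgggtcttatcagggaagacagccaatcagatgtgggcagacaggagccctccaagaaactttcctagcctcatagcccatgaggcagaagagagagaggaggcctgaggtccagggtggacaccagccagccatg
Epor: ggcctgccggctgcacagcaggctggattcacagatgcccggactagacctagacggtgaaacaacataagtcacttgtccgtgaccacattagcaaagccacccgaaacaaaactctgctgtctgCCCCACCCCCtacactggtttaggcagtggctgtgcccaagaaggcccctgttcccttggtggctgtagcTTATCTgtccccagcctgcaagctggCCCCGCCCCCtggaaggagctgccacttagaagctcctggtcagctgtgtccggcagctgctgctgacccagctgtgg
Alas2: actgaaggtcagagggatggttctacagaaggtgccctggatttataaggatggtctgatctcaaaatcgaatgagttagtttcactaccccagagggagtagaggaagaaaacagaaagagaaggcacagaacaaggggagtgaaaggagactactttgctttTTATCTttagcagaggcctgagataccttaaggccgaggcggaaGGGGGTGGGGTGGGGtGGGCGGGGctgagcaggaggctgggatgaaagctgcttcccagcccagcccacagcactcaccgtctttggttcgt
Epb42: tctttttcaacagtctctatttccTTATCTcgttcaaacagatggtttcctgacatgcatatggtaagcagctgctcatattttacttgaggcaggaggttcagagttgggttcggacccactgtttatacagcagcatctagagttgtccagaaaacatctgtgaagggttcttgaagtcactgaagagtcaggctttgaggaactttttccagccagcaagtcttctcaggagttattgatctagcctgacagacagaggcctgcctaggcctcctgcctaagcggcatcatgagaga
The Klf1 window held neither sequence as searched, and that of Epor held 1 AGATAA and 4 CCNCNCCC. Other spellings were not searched. The Klf1 window does hold ttatca, which is TGATAA on the other strand, and caccc. The Alas2 window likewise held 1 and 4, and that of Epb42 1 and 0. Over all erythroid genes in the table of start sites, AGATAA was in 16 of 105 windows (15.2%) of genes well above the median and in 5 of 22 (22.7%) of the remaining ones, against 11.2% of all 32851 windows. It was in 5.81% of windows of all genes well above and in 16% of those of the other blood lineages. CCNCNCCC was in 81 of 105 (77.1%) and 14 of 22 (63.6%) erythroid windows, against 49.5% of all. It was in 69.5% of windows of all genes well above and in 45.3% of those of the other blood lineages. Windows of 1 gene can overlap. A match describes letters only.

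Over 3 lists of oncogenes, receptors and progenitor genes, 26 of 52 measured genes were well above the median (50%), against 32.0% of all genes. Genes linked to erythroleukemia and growth factor signaling made up most of them, and few genes of stem and early progenitor cells were among them. Of 13 measured oncogenes 7 were well above. Bmi1, a Polycomb gene that sustains self-renewal, had 652 and 698. Myb, which keeps progenitors dividing, had 622 and 663, and its 2 other probe sets had means of 494 and 311. Myc had 448 and 480.4. The survival gene Bcl2 had 301 and 271. Mst1r, the receptor tyrosine kinase whose short form is used by Friend virus, had 252 and 269.6. Fli1, an ETS factor that Friend virus also activates in some lines, had 144 and 115, and Ets1 had 45.7 and 43.6. Kit, the stem cell factor receptor, was just over the median at 36.2 and 36.8, and Erg, a further ETS factor, was not above it at 10.8 and 17.7.

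Of 20 receptor and signaling genes 16 were well above (80%, against 32.0% of all genes). None was at or below the median, where 33.9% of all genes lay. Epor, the erythropoietin receptor, had 884 and 942 and ranked 679. Igf1r, the insulin-like growth factor receptor, had 690 and 655, and Jak2, the kinase bound to the erythropoietin receptor, 506 and 571. The phosphatases Ptpn11 and Ptpn6 had means of 422 and 393, and Csf2rb, the shared beta chain of the interleukin-3 receptor family, 397. Stat5a and Stat5b, which carry the signal to the nucleus, had means of 268 and 300.0, and Cish, a feedback inhibitor of that route, 273. Socs3, another such inhibitor, had 48.7 and 55.5, and Il3ra, the interleukin-3 receptor alpha chain, 35.3 and 31.0.

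Of 19 measured stem and early progenitor genes 3 were well above, namely Mycn, Gata2 and Runx1, which is 15.8% against 32.0% of all genes. Gata2, the progenitor GATA factor that GATA1 replaces, had 268 and 261 and a second probe set at 63.5 and 55.4. Runx1, a founder of blood cell identity, had 215 and 169.5 by the brightest of 6 probe sets, and the other 5 had means of 10.7 to 61.3. By the median of the probe sets 1 of the 3 remained well above. Prom1, Hoxa10, Hhex, Esam, Hoxb4, Angpt1, Cd34 and Procr were at or below the median on both arrays, with means of 4.08 to 21.4. Cd34, the surface marker of stem and progenitor cells, had 5.41 and 5.63.

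Few genes of other blood lineages were well above the median. Over 7 lists, 13 of 125 measured genes were (10.4%), against 32.0% of all genes. At or below the median on both arrays were 56 of them, where 33.9% of all genes lay. The median intensity of the 125 was 34.7. The 13 well above were, from the mast cell list, Mcpt2, Srgn, Cma1 and Gzmb, and from the megakaryocyte list Plek, Pf4 and Itga2b. The others were Adgre1, Csf1r and Tyrobp of the macrophage list, Igll1 and Ighm of the B cell list, and Thy1 of the T and NK cell list. Such genes are not all restricted to the lineage of their list.

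**Figure D4:**
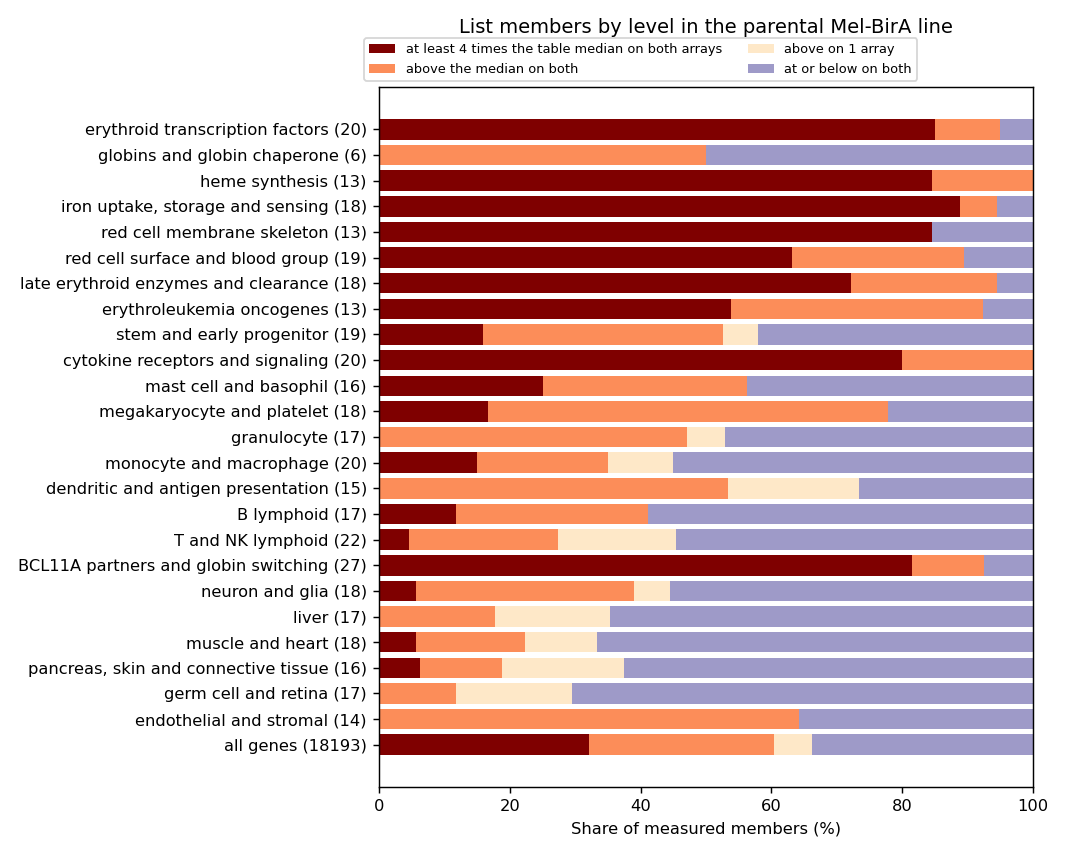
Share of measured members (%) of each list, and of all genes, at least 4 times the table median on both parental arrays, above the median on both, above it on 1 array, or at or below it on both, with the number measured in parentheses. The dark red share is 63.2% to 88.9% in the erythroid lists other than globins and 0% in the globin list. It is 0% to 25% in the other blood lineages, and 32.0% over all genes.

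Mast cell genes well above the median encode granule proteins, and those of the IgE receptor and of histamine synthesis were not above it. After Mcpt2, Srgn, the granule proteoglycan serglycin, had 1414 and 1317. Cma1, a second chymase, had 324 and 263, and Gzmb, granzyme B, had 277 and 261. Cpa3, a carboxypeptidase of the same granules, had 106 and 92.3, and Mitf, a transcription factor of mast and pigment cells, 87.1 and 89.3. A probe set shared by Cma2 and Mcpt9, neighbours in that protease family, had 90.8 and 102. Fcer1a and Ms4a2, which encode chains of the IgE receptor, had 20.8 and 7.34, and 10.2 and 13.7. Hdc, whose enzyme makes histamine, had 7.66 and 9.56. Mcpt8, Mcpt1, Tpsab1 and Fcer1g were also at or below the median, at means of 4.92 to 18.7. Of the 16 measured members 4 were well above (25%, against 32.0% of all genes), 5 above and 7 not. Over all genes 33.9% were not above.

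Of 18 measured megakaryocyte genes 3 were well above the median (16.7%, against 32.0% of all genes), 11 above and 4 not. Over all genes 60.4% were above or well above. The values of the 11 genes began at 37.8, within the range of the Bacillus control probe sets. Plek, a platelet substrate of protein kinase C, had 304 and 301, Pf4, a platelet chemokine, 168 and 168, and Itga2b, the alpha chain of the fibrinogen receptor, 156 and 168. Its partner Itgb3 had 27.2 and 23.4 and was not above, like Ppbp, Mmrn1 and Gp6, at means of 10.9 to 17.7.

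Granulocyte and dendritic cell genes had no member well above the median among 17 and 15 measured, against 32.0% of all genes. The brightest were Csf3r, the receptor of granulocyte colony-stimulating factor, at 116 and 118, and H2-Aa, a class II antigen chain, at 66.2 and 82.8. Mpo, the myeloperoxidase of neutrophils, had 41.7 and 28.5. Of the granulocyte genes Prg2, Epx, Elane, S100a8, Chil3, S100a9, Camp and Lcn2 were at or below the median on both arrays, at means of 4.06 to 27.8. Of the dendritic cell genes Xcr1, H2-Ab1, Irf4 and Cd83 were, at means of 3.08 to 18.4.

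Of 20 macrophage genes 3 were well above (15%, against 32.0% of all genes) and 11 not above, where 33.9% of all genes lay. Adgre1, which encodes the F4/80 antigen, had 275 and 228, Csf1r, the receptor of macrophage colony-stimulating factor, 173 and 168, and Tyrobp, an adaptor of immune receptors, 132 and 142. Fcgr3, an Fc receptor, had 167 and 113 and fell short on array 2 alone. Ccr2, Itgam, Irf8, Lyz1, Cx3cr1, C1qa, Ly86, C1qb, Ctss, Aif1 and Mpeg1 were not above the median, at means of 1 to 21.4. Itgam, an integrin of mature myeloid cells, had 16.6 and 13.6.

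Of 17 measured B cell genes 2 were well above the median (11.8%), against 32.0% of all genes. Of 22 T and NK cell genes 1 was (4.55%). Thy1, a surface glycoprotein of T cells and some progenitors, had 609 and 692 from 1 probe set and ranked 1062. Igll1, the surrogate light chain of early B cells, had 312 and 325 by 1 probe set and 17.3 and 5.04 by the other. Ighm, the heavy chain of IgM, had 275 and 221 by the brightest of 11 probe sets, and the others had means of 7.67 to 91.5. Both calls rest on a probe set of the suffix _x_at, and without probe sets of the suffixes _s_at and _x_at 0 of the B cell genes were well above. Pax5, the B cell identity factor, had 47.8 and 59.7. Cd79b, Pou2af1, Spib, Cd22, Ms4a1, Vpreb1, Fcrla, Ebf1, Rag2 and Rag1 were at or below the median on both arrays, at means of 3.89 to 29.8. So were Cd5, Cd3d, Gata3, Il7r, Tbx21, Cd8b1, Cd4, Cd3e, Klrd1, Gzma, Nkg7 and Cd2, at means of 2.29 to 25.6.

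Genes of proteins that BCL11A is known to work with, and of globin switching, were mostly well above the median. Of 27 genes of that list 22 were well above (81.5%, against 32.0% of all genes), 3 above and 2 not. By the median of each gene's probe sets 16 were well above, against 4107 of all 18193 genes. Like the red cell lists, this list holds genes active in many cell types, such as Hdac1 and Rbbp4. The part of that in the gap was not tested. BCL11A is a zinc finger repressor of embryonic and fetal globin genes that recruits NuRD, a complex that moves nucleosomes and removes acetyl groups from histones. Rbbp7 and Rbbp4, histone-binding subunits, had means of 2735 and 1366. Mta1, a NuRD scaffold, had 1952 and 1977, and Chd4, its motor, 835 and 867. Dnmt1, the maintenance DNA methyltransferase, had 1792 and 1995, and Rcor1, the CoREST corepressor, 710.2 and 800.4. The histone deacetylases Hdac1 and Hdac2 had means of 583 and 436. Sox6, a partner of BCL11A at globin genes, had 122 and 114 and fell just short. Lin28b and Igf2bp1, RNA-binding proteins of the fetal program, had 3.38 and 2.09, and 28.9 and 18.8.

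Bcl11a itself was read by 7 probe sets that spanned the range from well above to not above the median. The 3 brightest had 309.5 and 350.0, 307 and 347, and 247 and 300.0 on arrays 1 and 2. Of the others, 3 had means of 99.9, 68.2 and 37.8, and the dimmest had 18.2 and 18.6.

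Some genes differed between the arrays in 1 probe set while another of their probe sets did not, and some had no other probe set to compare. Among genes with a mean over 100, Cmtm2b had 16.7 on array 1 and 360.4 on array 2, from its only probe set. Aplf had 48.0 and 289, and its second probe set 23.2 and 20.1. Wipi1, a gene of autophagy, had 65.0 and 221, and the next of its 6 probe sets 63.7 and 58.0. Map1lc3b, which encodes the autophagosome protein LC3B, had 803 and 1583, and its next probe set 616 and 645. In the other direction Ccdc97 had 313 on array 1 and 46.8 on array 2, with a second probe set at 54.7 and 45.4. Anp32a had 390.1 and 87.7, with further probe sets at 219 and 243, and 164 and 172. Arrdc1 had 392 and 99.8, with others at 212 and 204, and 188 and 203. Rap2b, Kdm4b and Ccdc138 were lower on array 2 as well, by 1.67, 1.46 and 1.21 on the log2 scale, and Snx22 and Snhg3 higher by 0.85 and 0.84. The second probe set of Ccdc138 was also lower on array 2, at 21.7 and 1.76, both below the table median. Kdm4b, Snx22 and Snhg3 have 1 probe set each.

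**Figure D5:**
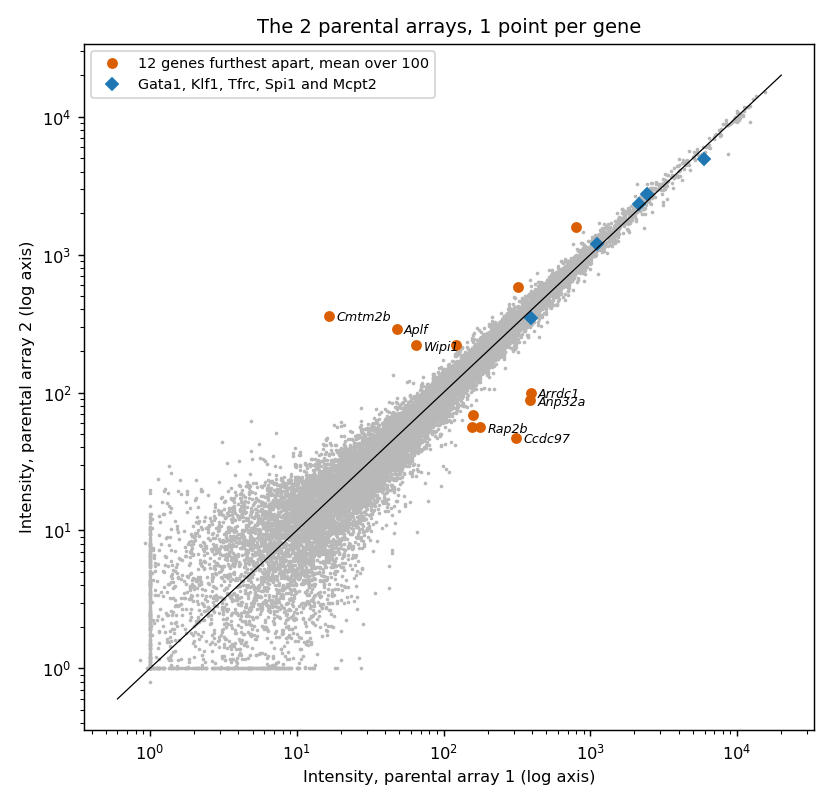
Intensity on parental array 1 and array 2 (both log axes), 1 point per gene for 18193 genes, with equal values on the line. The 5 marker genes (diamonds) lie near the line, 12 genes with a mean over 100 that were furthest apart (circles) lie off it, and points fan out below an intensity of about 30.5.

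Across the lists, 206 of 416 measured genes had several probe sets. Of these 87 were well above by the brightest, and 38 of the 87 had another probe set at or below the median on at least 1 array. All probe sets were well above for 29. Over all genes the counts were 3955, 1954 and 809 of 9010 genes with several probe sets.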

How the data were processed

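RNA from MEL cell lines was hybridised to 10 arrays, of which the 2 titled for the parental line are described. The labels' protocols describe priming with oligo-dT and biotin labelling of the cRNA, so probe sets far from the 3' end of a transcript can read lower. The values are linear intensities as the authors deposited them, 1 column per array. Their summary over probes, background correction and scaling are not given in the sources used here, and they were used without further normalization.

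Of 45101 probe sets, 64 controls were left out. Probe sets with 1 symbol in the platform annotation numbered 34945, with several 932 and with none 9160. Of the first, 34741 matched a RefSeq gene of GRCm38.p6 and 0 symbols changed. A gene was read by its probe set with the highest parental mean. Of 452 genes in 25 lists, 416 had a probe set of their own, 9 only a shared one, and 27 were not analysed here.

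The members and lists were chosen with earlier results of these data known. Named were 5 markers, the 25 brightest genes without an Rpl or Rps symbol, in each list every member well above the median where there were up to 6 and otherwise the 6 brightest, the members not above the median of the erythroid, progenitor and blood lineage lists, the globins and Bcl11a by all probe sets, and 6 genes in each direction furthest apart between arrays. Genes named beyond these rules were chosen after their values were seen. No test was run, because the line has 2 arrays and no second group, and that number limits the precision. An SD here reflects the difference of these arrays alone, possibly a technical one. Alternatives covered the threshold, the reference level, the probe set, quantile normalization and each array left out. Functions were tested on simulated data. Python 3.11.15, pandas 2.3.3, numpy 2.4.6, scipy 1.17.1 and matplotlib 3.10.9 were used.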

Additional observations from a re-analysis of the deposited data

How the results depend on the processing

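The threshold and the probe set that reads a gene moved the counts of genes well above the table median. For all genes the count of 5830 was 3277 with a cutoff of 8 times the median, and 2694 with the dimmest probe set of each gene, a choice made after seeing the data. For the other blood lineages the count of 13 was 28 with a cutoff of 2 times the median and 7 with 8 times, and for the lists of tissues other than blood the count of 3 was 14 and 1. With the dimmest probe set, the count of progenitor genes was 14, against 26, and that of BCL11A partners 10, against 22. The 80 erythroid genes were 61 with a cutoff of 8 times and 54 with the dimmest probe set. Leaving out each array in turn gave 6078 to 6104 for all genes, 82 to 82 for erythroid, 26 to 27 for progenitor, 13 to 15 for other blood lineage, 22 to 23 for BCL11A partners and 3 to 5 for tissues other than blood, where Des and Ckm were added on array 1. A gene well above must pass on both arrays, so reading 1 array can only keep or raise these counts. Of the 100 brightest genes, 96 to 98 were shared with a ranking by 1 array and 82 with the median of the probe sets or without probe sets of the suffixes _s_at and _x_at. In all, 51 of these values moved little (counts within 1.5 times) and 9 moved further. Among single lists and genes 310 moved little and 84 further. For a single gene, moving little meant staying within the SD of its 2 arrays. Leaving out 1 of the 2 arrays cannot move a mean beyond that SD. A gene with 1 probe set also reads the same by the median or the dimmest of its probe sets. Those outcomes were fixed in advance, so the 310 is no measure of how firm single genes are. Quantile normalization left the rank correlation of the arrays at 0.976. No paired analysis was possible because the line was compared with no other group. Genes near the table median cannot be told from background at this signal.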

Other observations

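Genes of the sex chromosomes were read as well. Eif2s3y, a translation factor gene of the Y chromosome, had 430.3 and 495 on arrays 1 and 2, and Uty, a Y-linked histone demethylase relative, had 173 and 239.9. Kdm5d, also Y-linked, had 37.9 and 39.1. Xist, the RNA that coats an inactive X chromosome, had 33.5 and 21.3 by the brightest of its probe sets, and Tsix, its antisense partner, 10.2 and 7.27.

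Of the tissues other than blood, 3 genes were well above the median. Tnni3, a troponin of heart muscle, had 511 and 527, Cela1, a pancreatic elastase, 241 and 266, and Mbp, a myelin gene, 172 and 166. Mbp was well above by 1 of 8 probe sets, the others having means of 1.16 to 112, and by their median or without suffixes _s_at and _x_at 0 genes of the neuron and glia list were. Each is a single gene of a list whose median lay below the table median.

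Control probe sets for repeats and ribosomal RNA gave signal in both arrays. The B2 repeat had 16037 and 15878 and the B1 repeat 12907 and 12797, among the brightest values of the table. The middle 18S ribosomal RNA control had 415 on array 1 and 759.9 on array 2, and the 3' one 289 and 409.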
